A study of Rattus norvegicus with 64 samples.

Results

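Mmp12, Spp1, Arg1, Gpnmb, Chi3l1, Trem2, Fabp4, Csf1 and Csf1r are 9 genes tied to macrophages that clear particles and remodel tissue. They were chosen by name, though with earlier results of these data known, and all 9 were found among the 30045 gene symbols of the count tables. RNA was sequenced from a piece of lung of 64 male rats of the outbred Sprague-Dawley strain. The rats had been placed in a whole-body chamber for 6 hours on each of 4 days, with either dust of fracking sand, the mostly silica sand used to prop open rock in gas and oil wells, or filtered air. At 10 mg/m3 there were 5 dust and 5 air rats at day 1 after the exposure, 5 and 5 at day 7, and 4 and 4 at day 27. At 30 mg/m3 there were 6 dust and 6 air rats at each of these days. Each dose was a study with its own air rats, so dust was always set against air of the same study and day.

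Macrophages depend on the growth factor CSF1, which is made by stromal, endothelial and other cells and acts through the receptor CSF1R on the macrophage surface. Macrophages that have taken up particles or dead cells can turn on a set of genes for lipid handling, matrix breakdown and tissue repair, in which the lipid-sensing receptor TREM2, the glycoprotein GPNMB and the secreted protein SPP1 (osteopontin) are well known. Inhaled crystalline silica is a classical cause of macrophage-centred lung inflammation and fibrosis, and MMP12 (macrophage elastase), ARG1 and CHI3L1 have each been studied in that setting.

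The promoters of Mmp12 and Gpnmb are shown because Mmp12 rose at 30 mg/m3 and Gpnmb had the smallest p of the 9 genes at day 1 of 10 mg/m3. Both are from RefSeq, rat assembly GRCr8, and run 5′ to 3′ from 250 bases before to 50 bases after the transcription start, on the + strand, at chr8:12866402-12866701 and chr4:79340878-79341177. Capitals mark letters that match one of the motifs TGANTCA (AP-1), TCACATGA (M-box of the MITF and TFE factors) and GAGGAAG (PU.1), searched on both strands.
Mmp12: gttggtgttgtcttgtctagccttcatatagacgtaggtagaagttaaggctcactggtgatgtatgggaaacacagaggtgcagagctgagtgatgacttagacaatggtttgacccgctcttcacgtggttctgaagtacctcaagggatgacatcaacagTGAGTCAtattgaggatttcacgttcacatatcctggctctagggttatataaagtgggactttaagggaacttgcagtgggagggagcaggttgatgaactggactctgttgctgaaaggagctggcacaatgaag
Gpnmb: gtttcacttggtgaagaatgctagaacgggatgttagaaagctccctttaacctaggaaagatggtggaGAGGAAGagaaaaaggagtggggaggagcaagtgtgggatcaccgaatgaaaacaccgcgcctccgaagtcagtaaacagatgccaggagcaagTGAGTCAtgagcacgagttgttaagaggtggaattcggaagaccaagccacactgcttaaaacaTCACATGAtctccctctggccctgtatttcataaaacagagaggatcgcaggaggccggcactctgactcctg
Both promoters hold TGAGTCA with its first base 87 bases before the start. TGANTCA is its own reverse complement and occurs in 7.33% of the 33469 rat promoters of the same 300 bases. The Gpnmb promoter also holds TCACATGA at 23 bases and GAGGAAG at 181 bases before the start. These motifs occur in 1.16% and 12.4% of all promoters. A match of letters is a description of the sequence and was not tested for binding. Among the 6 members with a promoter entry, Trem2 also held TGAATCA, and Trem2 and Csf1r held CTTCCTC, the reverse complement of the PU.1 letters.

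Library totals ran from 3420235 counts, in dust rat 27 of day 1 at 10 mg/m3, to 12359518 counts. Air rats 51 and 53 of day 1 at 30 mg/m3 stood apart, with reads on 21889 and 22077 genes, against at most 19731 in any other library. Macrophage markers were present in every library, among them Cd68 with a median of 332 counts, C1qa with 345 and Mrc1 with 2294.5. Of the alveolar macrophage markers, Marco and Ear1 had 0 counts in 46 and 40 of the 64 libraries, while Abcg1, Itgax and Plet1 had counts in all. Of 9 adipocyte markers, the defining genes Adipoq, Plin1, Lep and Adig had medians of 0 to 2 counts and Retn 4.5, while Cidec, Cfd, Slc7a10 and Lipe had medians of 18, 55, 348 and 468.5 counts and reads in every library. A piece of lung holds many cell types, and where a gene's level is lower, fewer cells of a type and less RNA per cell cannot be told apart. Nothing beyond the titles says that the libraries are separate rats, so p-values measure the spread between these libraries.

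At 30 mg/m3, Mmp12 and Arg1 were higher in dust than in air when the 3 days were averaged, and none of the other 7 genes passed the test there; 1.2% of all genes did. At 10 mg/m3, none of the 9 passed on any day or on average, where 0.0319% of all genes did. Levels are CPM, the reads of a gene relative to the size of the library, scaled by TMM factors, and a gene was called at a Benjamini-Hochberg adjusted p under 0.05 in edgeR's quasi-likelihood test over all genes. Each of the 6 daily comparisons of dust with air called 0 of the 9. The background was as sparse, with 0.128% of all genes called at day 1 of 10 mg/m3, 0.0643% at day 7 of 30 mg/m3 and 0% in the other 4. At an unadjusted p under 0.05, 1 of the 9 genes passed at each day of 10 mg/m3, beside 18.9%, 3.96% and 2.36% of all genes at days 1, 7 and 27. At 30 mg/m3 it was 3 of the 9 at day 1 and 1 at each of days 7 and 27, beside 15%, 4.99% and 7.34% of all genes. DESeq2 called 1 of the 9 on a single day, Gpnmb at day 1 of 10 mg/m3, and limma voom called 0. A test of whether the dust effect depended on the day called 0 of the 9 in either study, with 0% of all genes called, and 1 of the 9 (Fabp4, 10 mg/m3) at an unadjusted p under 0.05, where 7.28% of all genes passed.

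The 9 genes varied over a narrow range between groups. The ratio of the highest to the lowest of the 12 group means was 1.2 for Csf1r, 1.37 for Csf1, 1.51 for Chi3l1, 1.72 for Gpnmb, 1.9 for Trem2, 2.01 for Arg1, 2.15 for Fabp4, 2.17 for Mmp12 and 3.15 for Spp1. With the 12 group means of a gene put in order, none of its 11 pairs of neighbours differed by more than the larger SD of the pair, except 1 pair of Fabp4. The highest mean was in dust at day 1 of 30 mg/m3 for Mmp12, Chi3l1 and Arg1, in dust at day 1 of 10 mg/m3 for Gpnmb, and in dust at day 27 of 30 mg/m3 for Csf1. It was in air at day 1 for Csf1r, Trem2 and Fabp4 (30 mg/m3 study) and for Spp1 (10 mg/m3 study). Spread within groups, as the median coefficient of variation, was 5.26% for Csf1r and 14.1% for Csf1, and 29.6% for Mmp12 and 58.4% for Spp1. Read numbers differed widely, with 4 to 92 reads per library for Mmp12, 6 to 58 for Trem2, 12 to 98 for Arg1 and 18 to 115 for Fabp4, against 840 to 3427 for Csf1r. The spread did not follow them in every case, as it was 20.2% for Arg1 and 23.1% for Chi3l1, which had 368 to 2822 reads.

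**Figure D1:**
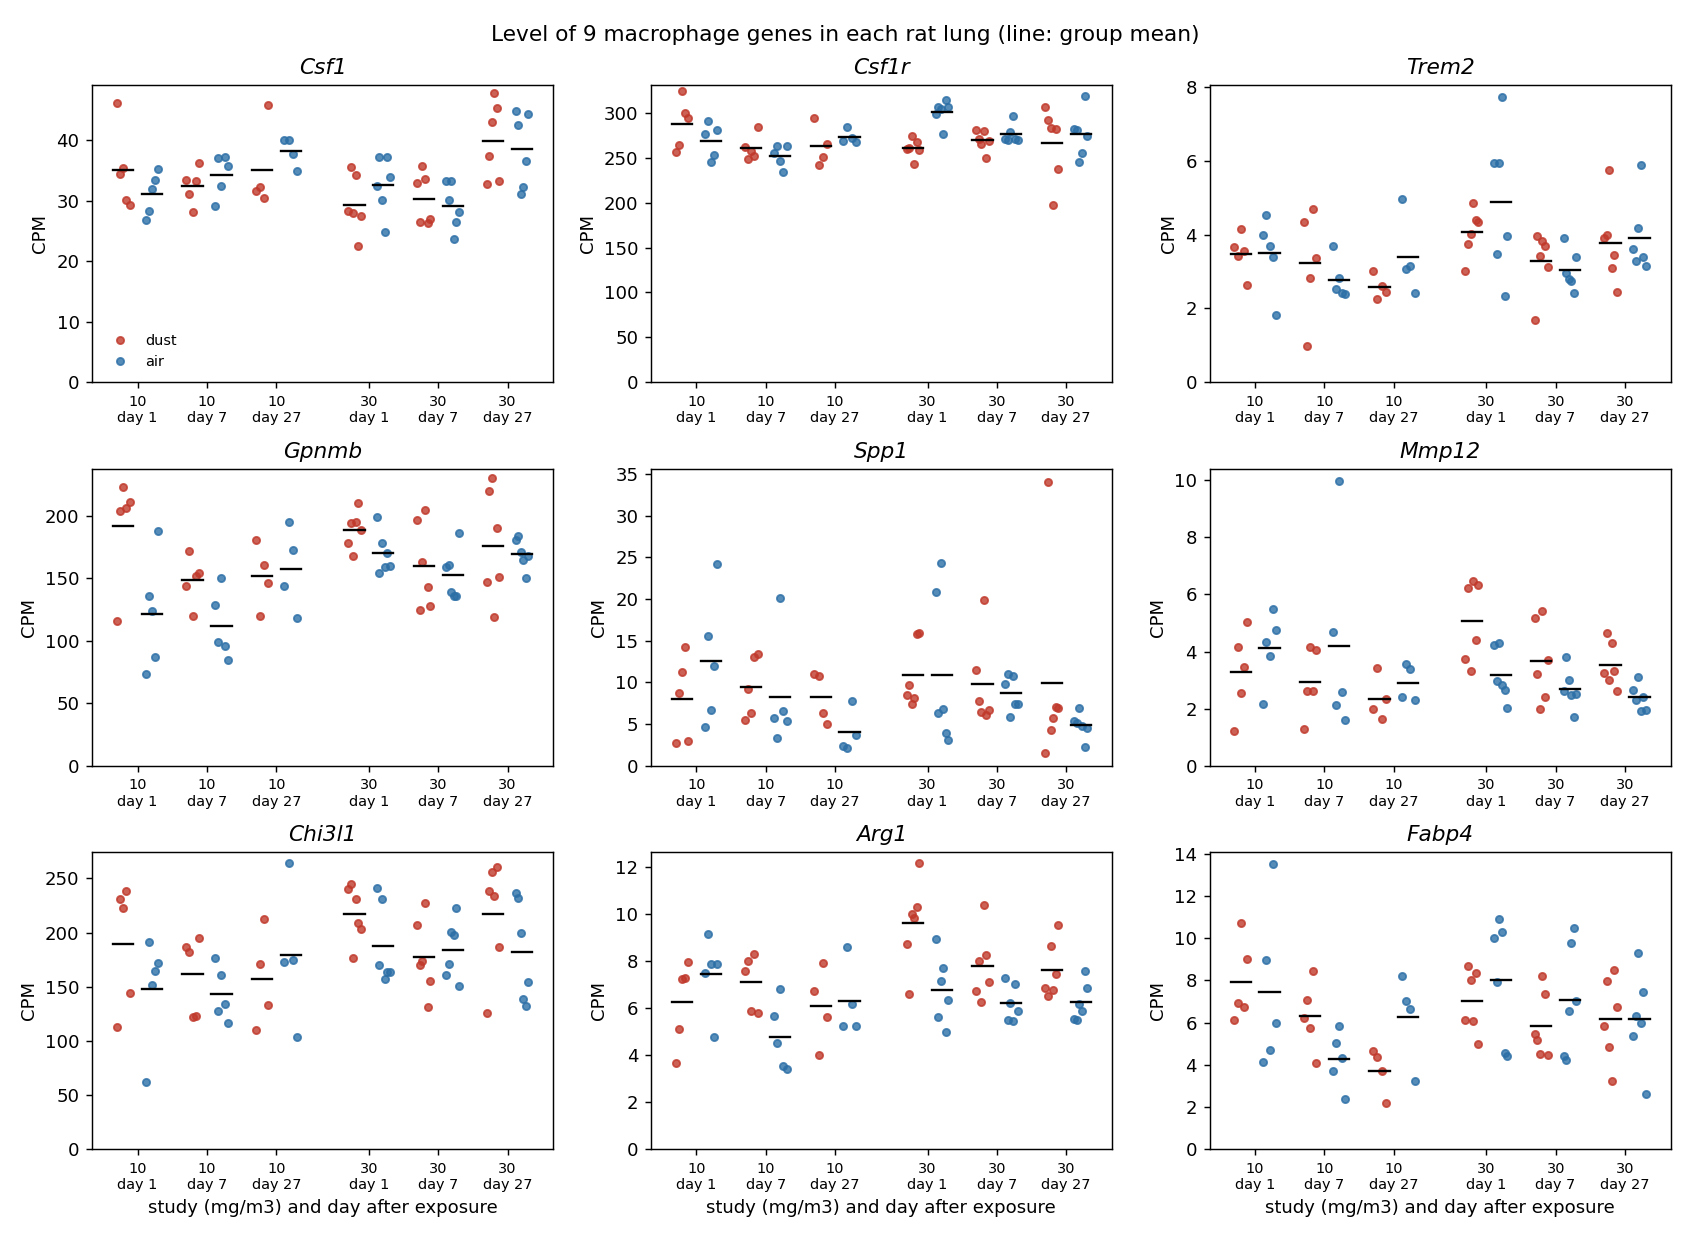
Level of each gene in each rat lung in CPM (y axis, from 0), by study (mg/m3) and day (x axis), with dust in red left of air in blue and a line at the group mean. Mmp12 and Arg1 in dust at day 1 of 30 mg/m3 averaged 5.08 and 9.62 CPM, against 3.16 and 6.8 CPM in air, while single rats stand far above their group for Spp1 (34 CPM in a dust rat at day 27 of 30 mg/m3).

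Csf1 encodes the ligand. Its level lay between 22.5 and 47.9 CPM in all 64 rats. At day 1 it averaged 35.1 ± 6.74 CPM in dust and 31.2 ± 3.54 CPM in air at 10 mg/m3 (SD, n = 5 each). At 30 mg/m3 it averaged 29.3 ± 4.86 CPM in dust and 32.6 ± 4.68 CPM in air (SD, n = 6 each). Dust and air overlapped on every day, and the mean effect over days was -0.02 ± 0.071 at 10 mg/m3 and -0.02 ± 0.0706 at 30 mg/m3 (log2 fold change ± SE), with 95% intervals of -0.168 to 0.123 and -0.165 to 0.121.

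Csf1r encodes the receptor of CSF1 and had the least spread of the 9. Its level at day 1 of 30 mg/m3 was 243 to 274 CPM in dust rats, with a median of 261, and 277 to 315 CPM in air rats, with a median of 306. All 6 dust rats lay below all 6 air rats, as was so for 24 of 15551 genes (0.154%). The log2 fold change was -0.22 ± 0.0703 and did not pass (adjusted p = 0.197). Without air rats 51 and 53, which detected more genes than the others, it was -0.24 with an adjusted p of 0.0575. That fit called 877 of all genes on this day, against 0 with every rat kept. At days 7 and 27 the groups overlapped, with log2 fold changes of -0.04 and -0.05. At 10 mg/m3, day 1, Csf1r was 257, 264, 294, 300 and 325 CPM in dust rats and 245, 253, 277, 281 and 291 CPM in air rats, which overlap. The log2 fold change there was 0.11 ± 0.072.

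Trem2 encodes a lipid-sensing receptor of macrophages that signals through the adaptor Tyrobp. Its level was 0.983 to 7.72 CPM, from 6 to 58 reads a library. It was, at day 1 of 30 mg/m3, 3.02 to 4.86 CPM in dust rats (median 4.18) and 2.34 to 7.72 CPM in air rats (median 4.94). All 6 dust rats lay below the air median, yet the ranges overlap, and the log2 fold change of -0.27 ± 0.228 did not pass. The mean effect over days was -0.05 ± 0.166 at 10 mg/m3 and -0.07 ± 0.133 at 30 mg/m3.

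Gpnmb, which encodes a glycoprotein of late endosomes and lysosomes, had its largest difference at day 1 of 10 mg/m3. Dust rats had 116, 204, 206, 211 and 223 CPM, against 73, 87.4, 124, 136 and 188 CPM in air rats. Of 5 dust rats, 4 lay above every air rat, and the one that did not was rat 27, which had the fewest reads of all libraries. The log2 fold change was 0.67 ± 0.21, or 1.59-fold, and missed the threshold in edgeR (adjusted p = 0.111). DESeq2 gave it an adjusted p of 0.0443, in a fit that called 473 genes against 20 in edgeR. Leaving out air rat 21 gave 0.88 with an adjusted p of 0.0111, where far more genes were called too. It did not pass with limma voom (adjusted p = 0.0992). In edgeR it did not pass with DESeq2 size factors (0.112), no filter (0.188) or only the compared groups (0.376). On the same day the clock genes Dbp and Arntl were called in opposite directions, with Dbp at a log2 fold change of 2.41. Their part in the Gpnmb difference was not tested, and across all 64 rats the deviations of Gpnmb and Dbp from their group means had a Pearson r of 0.0048. Bhlhe41, a repressor within the clock, had an r of 0.768 with Gpnmb by the same measure, and 0.859 and 0.708 in the 10 and 30 mg/m3 studies. Ctsd and Pcyox1 stood above it, at 0.849 and 0.777, and the macrophage marker C1qa had an r of 0.442 with Gpnmb. At day 7, Gpnmb was 120, 144, 152, 154 and 172 CPM in dust rats and 84.5, 95.8, 99, 129 and 150 CPM in air rats, with a log2 fold change of 0.41 ± 0.211. By day 27 the value was -0.07 ± 0.234. At 30 mg/m3 the 3 daily values were 0.14, 0.06 and 0.05, and at day 1 all 6 dust rats, at 168 to 210 CPM, lay above the air median of 165 CPM.

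Spp1 encodes osteopontin, a secreted protein that binds integrins and CD44. It varied most among rats of a group, and no difference between dust and air passed. At day 27 of 10 mg/m3 dust rats had 5.02, 6.31, 10.7 and 11 CPM, against 2.17, 2.32, 3.66 and 7.81 CPM in air rats, a log2 fold change of 1.05 ± 0.595. All 4 dust rats lay above the air median, and the groups overlap through 1 air rat. At day 27 of 30 mg/m3 dust rats ranged from 1.53 to 34 CPM with a median of 6.31, and air rats from 2.27 to 6.92 CPM with a median of 4.93. The log2 fold change of 1.05 ± 0.531 (adjusted p = 0.693) rested on dust rat 90, at 34 CPM, and was 0.02 without it. Both groups averaged 10.9 CPM at day 1 of 30 mg/m3.

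Mmp12, the macrophage elastase that cuts elastin and other matrix proteins, was the member with the largest called rise. At day 1 of 30 mg/m3 it was 3.3 to 6.48 CPM in dust rats (median 5.31) and 2.02 to 4.29 CPM in air rats (median 2.89). At day 7 it was 1.98 to 5.43 CPM in dust rats (median 3.47) and 1.7 to 3.81 CPM in air rats (median 2.56). At day 27 it was 2.62 to 4.64 CPM in dust rats (median 3.27) and 1.93 to 3.1 CPM in air rats (median 2.35). On every day the ranges overlapped, but 16 of 18 dust rats lay above the median of their air group and 10 lay above all its rats. The daily log2 fold changes were 0.67 ± 0.234, 0.44 ± 0.236 and 0.56 ± 0.24, with adjusted p-values of 0.226, 0.959 and 0.571. Averaged over days the rise was 0.56 ± 0.137, or 1.47-fold, and passed (adjusted p = 0.0375). The call is close to its threshold: it held in 19 of the 36 fits that each left out 1 rat, and over days 7 and 27 alone, where 0 genes were called, the value was 0.50 with an adjusted p of 0.384. At 10 mg/m3 Mmp12 was 1.22, 2.53, 3.46, 4.16 and 5.03 CPM in dust rats and 2.15, 3.83, 4.32, 4.76 and 5.5 CPM in air rats at day 1. It was 1.29, 2.6, 2.62, 4.07 and 4.15 CPM in dust rats and 1.59, 2.13, 2.57, 4.68 and 9.97 CPM in air rats at day 7. At day 27 dust rats had 1.63, 1.97, 2.33 and 3.42 CPM and air rats 2.3, 2.42, 3.38 and 3.55 CPM. No dust rat of that study lay above the highest air rat of its day, and the mean effect was -0.38 ± 0.239, which did not pass (adjusted p = 0.606).

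Chi3l1 encodes a secreted chitinase-like protein (YKL-40 in humans) that binds chitin and has no chitinase activity. Its levels lay between 61.8 and 264 CPM. On day 1 of 30 mg/m3 it was 177 to 245 CPM in dust rats (median 220) and 157 to 241 CPM in air rats (median 167), so that all 6 dust rats were above the air median though the ranges overlap. The log2 fold change was 0.20 ± 0.166 at day 1, -0.06 ± 0.166 at day 7 and 0.25 ± 0.166 at day 27, and none passed. At 10 mg/m3 the values were 0.37 ± 0.267, 0.17 ± 0.268 and -0.21 ± 0.298.

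Arg1 encodes arginase 1, which turns arginine into ornithine and urea and is a marker of repair-type macrophages in mice. It was the second gene called in the mean over days at 30 mg/m3. At day 1 it was 6.63 to 12.2 CPM in dust rats (median 9.93) and 5.01 to 8.96 CPM in air rats (median 6.74). At day 7 it was 6.26 to 10.4 CPM in dust rats (median 7.56) and 5.47 to 7.29 CPM in air rats (median 6.06), and at day 27 it was 6.52 to 9.55 CPM in dust rats (median 7.17) and 5.5 to 7.57 CPM in air rats (median 6.04). Of 18 dust rats, 17 lay above their air median and 9 above all air rats of their day. The daily log2 fold changes were 0.50 ± 0.145, 0.32 ± 0.145 and 0.28 ± 0.146, none of which passed (adjusted p = 0.182, 0.959 and 0.695). The mean was 0.36 ± 0.0838, or 1.29-fold, and passed (adjusted p = 0.0288). It passed in 31 of the 36 fits that each left out 1 rat, and over days 7 and 27 alone the value was 0.30 with an adjusted p of 0.403. At 10 mg/m3 the sign varied with the day. At day 7 Arg1 was 5.82, 5.9, 7.6, 8.03 and 8.32 CPM in dust rats, against 3.4, 3.54, 4.52, 5.66 and 6.82 CPM in air rats, with a log2 fold change of 0.56 ± 0.228 (adjusted p = 0.996). All 5 dust rats lay above the air median there. At days 1 and 27 the values were -0.20 ± 0.221 and -0.07 ± 0.247.

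Fabp4 encodes a fatty acid binding protein of adipocytes, capillary endothelium and macrophages. At day 27 of 10 mg/m3 dust rats had 2.2, 3.7, 4.36 and 4.65 CPM and air rats 3.24, 6.65, 7.01 and 8.21 CPM. All 4 dust rats lay below the air median, though 1 air rat was as low, and the log2 fold change of -0.77 ± 0.336 did not pass (adjusted p = 1). At day 7 of the same study the value was 0.56 ± 0.304, with dust rats at 4.07 to 8.45 CPM and air rats at 2.38 to 5.85 CPM. At 30 mg/m3 the 3 daily values were -0.19, -0.28 and 0.01.

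**Figure D2:**
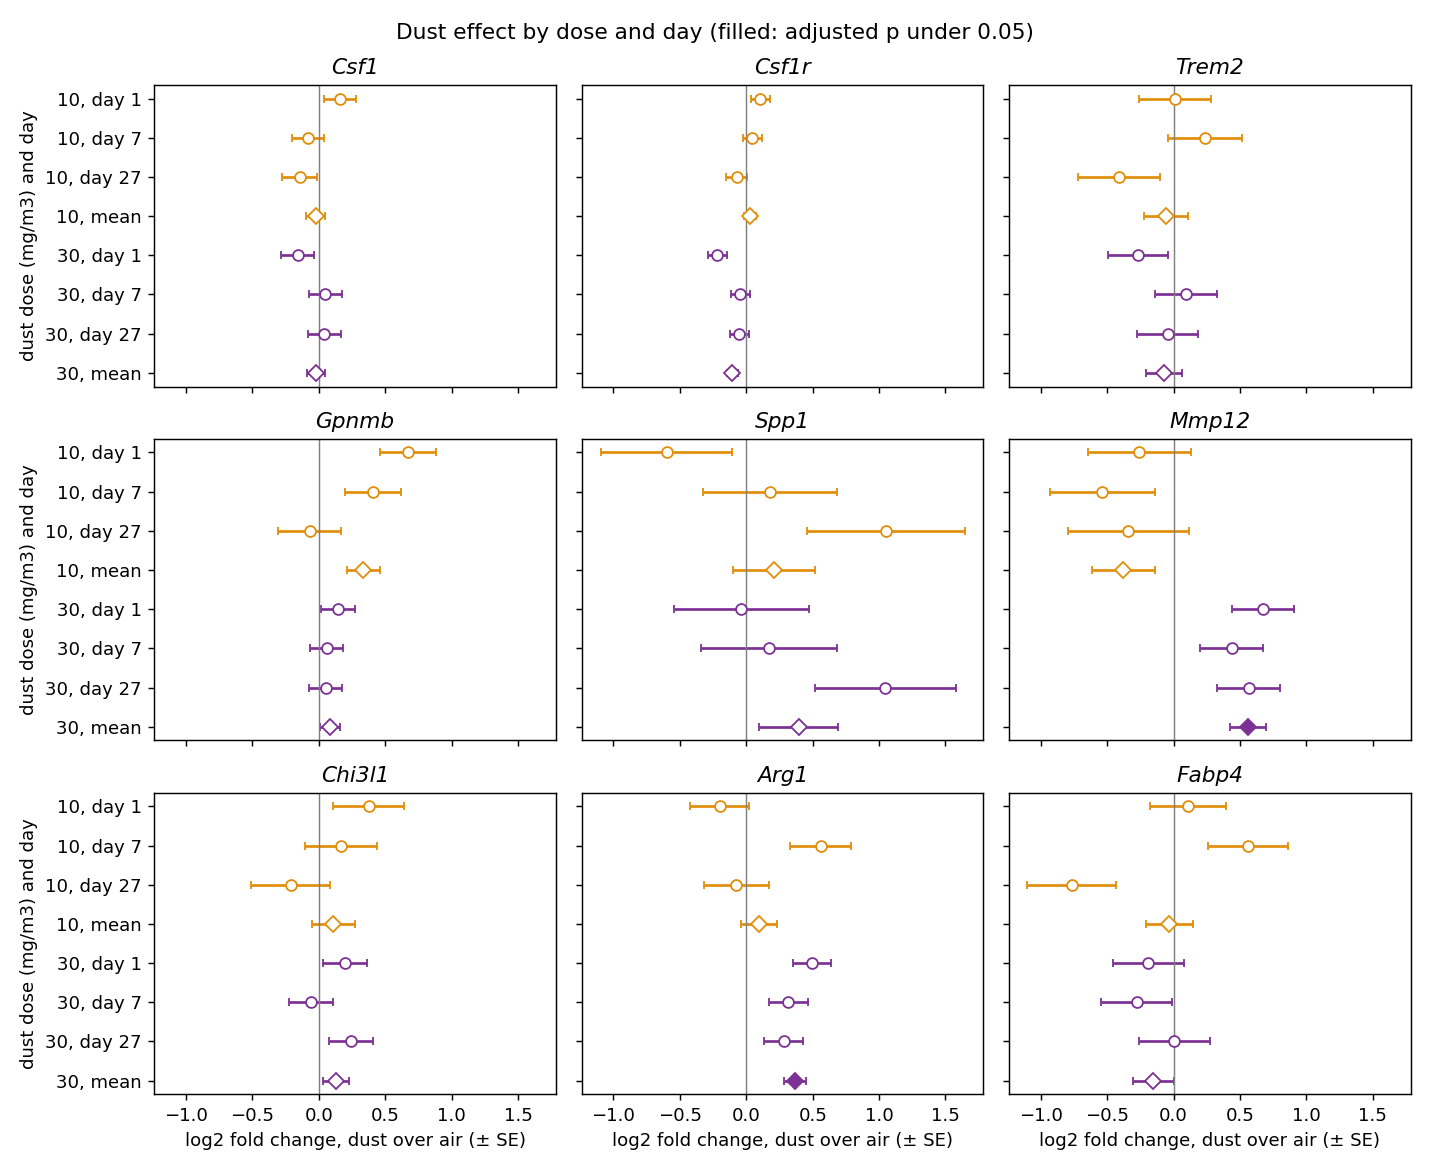
Log2 fold change of dust over air with its SE (x axis) for each dose and day, and for the mean over the 3 days (diamonds), for each gene. Filled symbols passed an adjusted p of 0.05, which are the means of Mmp12 (0.56) and Arg1 (0.36) at 30 mg/m3; at 10 mg/m3 the mean of Mmp12 was -0.38.

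Set against all genes, the 2 of 9 called in the mean at 30 mg/m3 stand beside 187 of 15551, or 1.2%, of which 155 were higher in dust (0.997%). In the mean at 10 mg/m3, 0 of 9 were called beside 5 of 15668, or 0.0319%. The median log2 fold change of the 9 genes at 30 mg/m3 was 0.08, against 0.01 over all genes tested. Genes of other cell types were called in the same mean. Of 8 neutrophil markers tested, 1 was called, Lcn2 (lipocalin 2, made by neutrophils and by stressed epithelium), which rose by 0.75 ± 0.179 on the log2 scale (adjusted p = 0.0354). The neutrophil list, in which Lcn2 alone averaged 108 CPM over the 64 libraries, summed to 195 to 529 CPM in dust rats and 185 to 284 CPM in air rats at day 1. It summed to 178 to 443 CPM in dust rats and 162 to 287 CPM in air rats at day 7, and to 183 to 406 CPM in dust rats and 166 to 322 CPM in air rats at day 27. Of its 8 tested markers, 5, 5 and 7 were above 0 at days 1, 7 and 27, with list medians of 0.0674, 0.225 and 0.245. Of 7 cardiac muscle markers tested, Myl3 was called lower, with a list median of -0.73. The cardiac list summed to 74.8 to 205 CPM in dust rats and 322 to 1030 CPM in air rats at day 7, with no overlap. At day 1 it was 62.8 to 407 CPM in dust rats and 62.9 to 401 CPM in air rats, and at day 27 it was 64 to 385 CPM in dust rats and 49.5 to 354 CPM in air rats, with 5 of 7 and 6 of 7 genes above 0. Liver, where arginase 1 works in the urea cycle, was followed by 4 tested markers, of which 0 were called and 4 were above 0 in the mean (median 0.44). Their medians by day were 1.98, -2.81 and 2.14. The liver list summed to 66.3 to 245 CPM in dust rats and 48.7 to 86.5 CPM in air rats at day 1, 39.2 to 48.8 CPM in dust rats and 42.8 to 456 CPM in air rats at day 7, and 55.3 to 323 CPM in dust rats and 42.8 to 76.4 CPM in air rats at day 27. Deviations of Arg1 and of the albumin gene Alb from their group means had an r of 0.361 over 64 rats. By the same measure Arg1 had 0.364 with the macrophage marker C1qa and -0.368 with the cardiac gene Myh6. For Mmp12 the values were -0.0401 with Alb, 0.475 with C1qa and -0.053 with Myh6. The ribosomal RNA gene Rnr1 was also lower in dust, by a log2 fold change of -1.26 (adjusted p = 0.048). The part of these genes in the rise of Mmp12 and Arg1 was not tested. Of 13 macrophage and 10 alveolar macrophage markers tested, 0 were called in any daily or mean comparison of dust with air. Of all genes, at most 0.128% were called on any day, and the shares in the means are those above. At day 1 of 30 mg/m3 the macrophage list summed to 11200 to 17900 CPM in dust rats and 11900 to 15100 CPM in air rats. Lyz2 alone had a median of 10700 CPM over all libraries, so this sum mostly follows Lyz2. The alveolar macrophage list summed on that day to 1120 to 1310 CPM in dust rats and 1110 to 1260 CPM in air rats. Its largest parts were Cd9 and Abcg1, with medians of 506 and 210 CPM. These sums are not a measure of macrophage number.

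**Figure D3:**
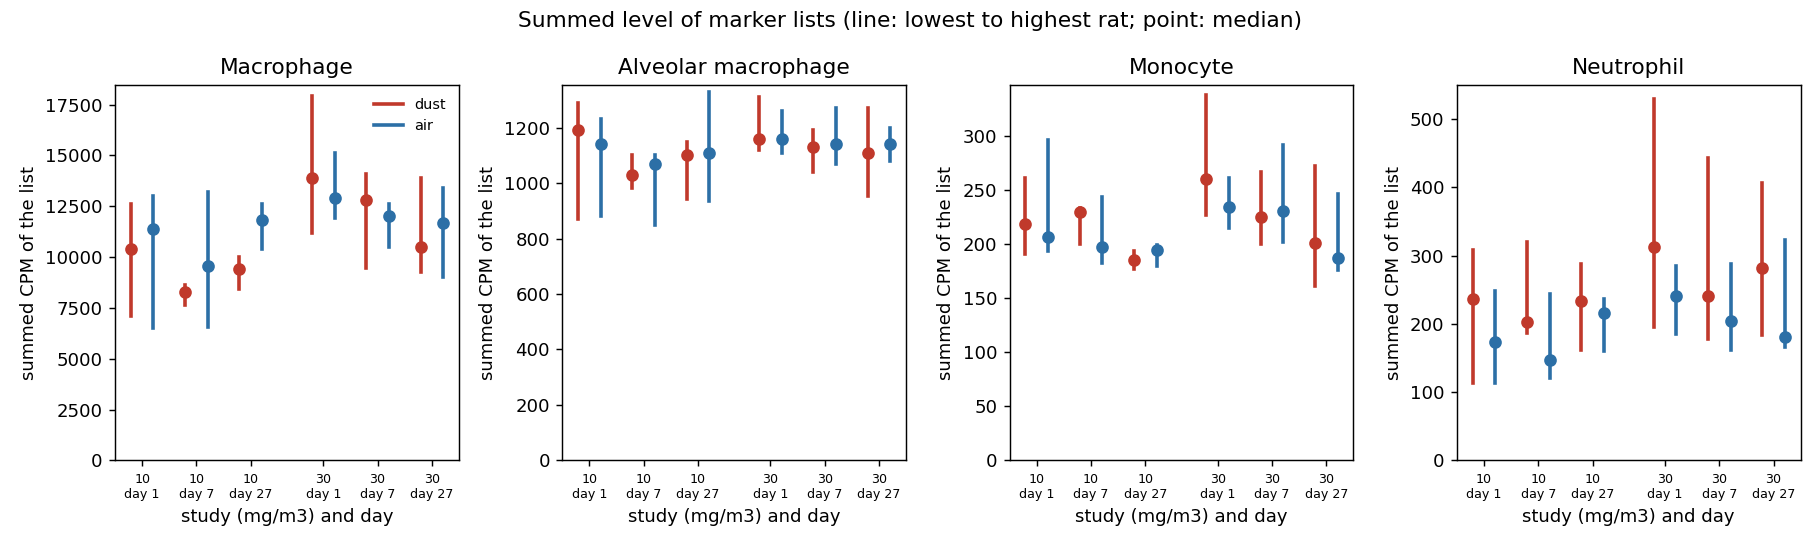
Summed CPM of the macrophage, alveolar macrophage, monocyte and neutrophil marker lists (y axis, from 0) by study and day, as the lowest to highest rat (line) and median (point), dust left of air. The neutrophil list reached 529 CPM in a dust rat at day 1 of 30 mg/m3, against at most 284 CPM in air rats, and the alveolar macrophage list lay within 848 to 1330 CPM in all groups. Single genes weigh heavily in the sums: Lyz2 had a median of 10700 CPM in the macrophage list, and Lcn2 averaged 108 CPM in the neutrophil list.

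Whether the dust effect differed between the doses was tested as the effect at 30 mg/m3 minus that at 10 mg/m3, each against its own air rats, in a fit of all 64 libraries. Each dose was a separate study, so a difference between doses cannot be told apart from a difference between studies. Mmp12 differed in the mean over days, by 0.94 ± 0.265 on the log2 scale (adjusted p = 0.0461), with effects of 0.56 at 30 mg/m3 and -0.38 at 10 mg/m3. It was the 1 of 9 genes called there, beside 338 of 16190 genes (2.09%), with 1.54% called higher. Its difference by day was 0.95, 0.98 and 0.89, and no single day passed. The spread of Mmp12 at 10 mg/m3 included an air rat at 9.97 CPM (rat 36, day 7), and without it the difference was 0.73. The call held in 29 of the 64 fits that each left out 1 rat, and limma voom gave an adjusted p of 0.072. At day 1, Csf1r was the 1 gene called, with a difference of -0.31 ± 0.0987 (adjusted p = 0.0377), on a day when 10.4% of all genes were called and 4.47% were called lower. With the day 1 groups alone in the fit its adjusted p was 0.0824. On the same day 2 of 13 macrophage markers, Cd68 and Laptm5, were called lower at 30 mg/m3 relative to 10 mg/m3. Of these 13 markers 6 were above 0, and the list median was -0.0106. The clock genes Dbp and Arntl were also called. The part of these genes in the Csf1r difference was not tested. The difference of Arg1 at day 1 was 0.71 ± 0.255 and missed the threshold (adjusted p = 0.0586). At days 7 and 27, 0 of 9 and 0% of all genes were called, with 2 and 0 of the 9 at an unadjusted p under 0.05, beside 8.02% and 1.75% of all genes. DESeq2 called 0 of the 9 on those days.

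The change without dust is given by air rats of day 27 set against those of day 1. None of the 9 was called, beside 2.97% of all genes in air rats of the 10 mg/m3 study and 12.9% in those of the 30 mg/m3 study. At an unadjusted p under 0.05 there were 2 of the 9 and 1 of the 9, beside 18.8% and 30.1% of all genes. Spp1 had the largest values of the 9. In the 10 mg/m3 study it averaged 3.99 ± 2.63 CPM at day 27 (SD, n = 4) and 12.6 ± 7.78 CPM at day 1 (SD, n = 5). Its log2 fold change was -1.69 ± 0.565 (adjusted p = 0.0976). DESeq2, which called 945 genes there against 466 in edgeR, called Spp1 (adjusted p = 0.046). Limma voom did not (adjusted p = 0.101). In the 30 mg/m3 study it averaged 4.83 ± 1.51 CPM at day 27 and 10.9 ± 9.22 CPM at day 1 (SD, n = 6 each). Its log2 fold change was -1.18 ± 0.529 (adjusted p = 0.13). Csf1 was higher at day 27 by 0.29 ± 0.124 and 0.24 ± 0.121, which did not pass (adjusted p = 0.19 and 0.181). The ribosomal RNA gene Rnr2 took 0.0893%, 0.109%, 0.119%, 0.286% and 2.17% of counts in air rats at day 1 of the 10 mg/m3 study. At day 27 there it took 1.98% to 2.68%. In the 30 mg/m3 study Rnr2 was called higher at day 27. Deviations from group means had an r with Rnr2 of 0.473 for Csf1 and -0.0847 for Spp1 over 64 rats. The part of Rnr2 in the values above was not tested.

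Wider lists put the members in context. Of 36 other tested genes of a macrophage repair programme, 0 were called in any of the 6 daily or 2 mean comparisons of dust with air. Few of all genes were called there: at most 0.128% on a day, 0.0319% in the mean at 10 mg/m3 and 1.2% at 30 mg/m3. The list's median log2 fold change ran from -0.08 to 0.06. Its most abundant genes were Fn1 (fibronectin), Tgm2 (a protein-crosslinking transglutaminase) and Vegfa. Fn1 averaged 889 ± 136 CPM in dust and 1020 ± 220 CPM in air at day 1 of 30 mg/m3 (SD, n = 6 each). Igf1, a growth factor made by macrophages and fibroblasts, was lower in air rats at day 27 than at day 1 in both studies, with log2 fold changes of -0.38 and -0.63 that passed (adjusted p = 0.0251 and 0.000132). It was the 1 of 36 genes of the list called in the 10 mg/m3 study, beside 2.97% of all genes. In the 30 mg/m3 study 5 of 36 were called, all lower at day 27 (Igf1, Ccl24, Cd44, Ctsk and Mmp14), beside 12.9% of all genes. A second list held signalling genes of CSF1R and TREM2, and also other colony-stimulating factors with their receptors (such as Csf2 and Csf3r) and other TREM family genes (such as Trem1). It is thus not a readout of CSF1R and TREM2 signalling alone. Of its 19 tested genes, 0 were called in these 8 comparisons, beside the same low shares of all genes. The list's median ran from -0.26, at day 1 of 30 mg/m3, to 0.19, at day 1 of 10 mg/m3. Between doses at day 1, 4 of the 19 were called, all lower at 30 mg/m3 relative to 10 mg/m3, where 4.47% of all genes were called lower. They were Spi1 (the factor PU.1), at -0.84 ± 0.161 with an adjusted p of 0.00263, Syk, a kinase downstream of TREM2 and its adaptor, at -0.58, Plcg2 at -0.47 and Grb2 at -0.43. Spi1 averaged 24.9 ± 2.68 CPM in dust and 30.4 ± 4.24 CPM in air at 30 mg/m3 (SD, n = 6 each), and 36.7 ± 5.18 CPM in dust and 24.8 ± 5.53 CPM in air at 10 mg/m3 (SD, n = 5 each). Of 37 repair genes tested in that fit, 4 were called lower (Cd68, Klf4, Stat6 and Tgfb1), beside the same 4.47%. Epithelial and endothelial genes were called lower in the same comparison. They were 3 of 8 alveolar type 2 markers (Napsa, Sftpb and Slc34a2; list median -0.46, 0 of 8 above 0), 3 of 6 alveolar type 1 markers (Aqp5, Cldn18 and Rtkn2; list median -0.42), 1 of 6 airway markers (Scgb1a1) and 1 of 10 endothelial markers (Cdh5). The clock genes named above were also called, and the part of these genes in the values of Csf1r, Spi1 and the repair genes was not tested.

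Among rats of the same group, Gpnmb, Spp1, Mmp12 and Chi3l1 had the higher correlations. Deviations of log2 CPM from the group mean over 64 rats had a Pearson r of 0.575 for Gpnmb and Chi3l1, 0.527 for Spp1 and Mmp12, 0.519 for Gpnmb and Spp1, 0.512 for Gpnmb and Arg1, 0.491 for Spp1 and Chi3l1, and 0.46 for Gpnmb and Mmp12. These are descriptions over libraries in which the genes share depth and the mix of cells, and Gpnmb itself had an r of 0.426 with the log2 library total. Within the 10 and 30 mg/m3 studies these pairs had r of 0.432 to 0.65 and 0.34 to 0.585, except Gpnmb and Arg1, at 0.739 and 0.101. Csf1r had its highest r with Gpnmb (0.349), Trem2 reached at most 0.206, with Arg1, and Csf1 was negative with Arg1 (-0.363) and Fabp4 (-0.333). No relation is read from the weak values of Trem2, which had 6 to 58 reads a library. Mmp12 had 4 to 92 reads and higher values of r. The part of read number in these values was not tested.

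**Figure D4:**
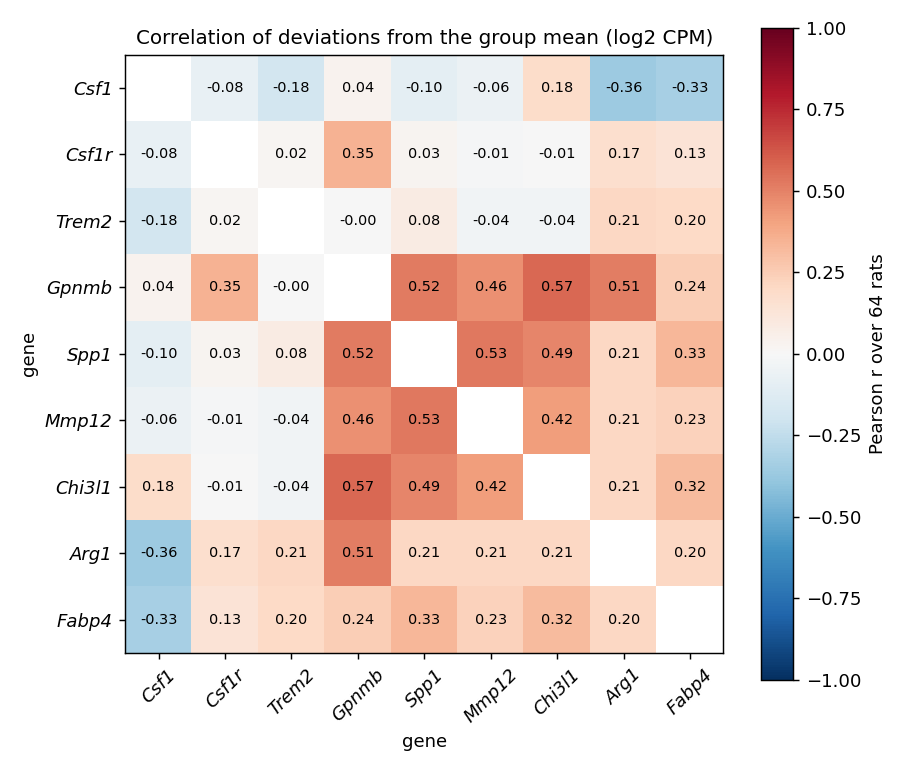
Pearson r between the 9 genes (rows and columns) of deviations of log2 CPM from the group mean over 64 rats, with red for positive and blue for negative values. Gpnmb, Spp1, Mmp12 and Chi3l1 form a block with r of 0.419 to 0.575. Csf1 and Trem2 stand outside the block, as does Csf1r apart from 0.349 with Gpnmb. Arg1 had 0.512 with Gpnmb but 0.21 with Spp1, Mmp12 and Chi3l1.

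Over 12938 genes with a mean of at least 1 CPM, the gene most like each member by the same measure was Ctsd, the lysosomal protease cathepsin D, for Gpnmb (r = 0.849, and 0.941 and 0.769 in the 10 and 30 mg/m3 studies). For Mmp12 it was Lcn2 (0.704), for Csf1r it was Itgb2, the beta-2 integrin of leukocytes (0.756), and for Spp1 it was the chemokine Ccl9 (0.654). For Chi3l1 it was Fetub (0.723), for Csf1 the transcription factor gene Foxf1 (0.762), for Fabp4 Dpy30 (0.627), for Arg1 the galectin gene Lgals3 (0.577, with 0.845 and 0.273 in the studies) and for Trem2 Snx24 (0.523). The 95th percentile of r over all these genes was 0.412 for Gpnmb, 0.387 for Chi3l1, 0.363 for Mmp12, 0.337 for Spp1 and 0.306 for Csf1r. For Csf1 it was 0.591.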

How the data were processed

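RNA sequencing counts from lungs of 64 rats were analysed. Libraries were strand-specific and made after removal of ribosomal RNA, per the labels' protocols. The authors deposited raw counts of reads for each gene symbol in 1 table per dose. The tools named are HISAT2 2.1.0, HTSeq 0.6.1, Trimmomatic 0.35, SAMtools 1.8 and bcl2fastq 2.19, with the build Rnor_6.0, per the submitters' processing notes. The order of these tools, the annotation and how strand was treated in counting are not stated there, so reads of overlapping and antisense genes are uncertain.

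Tests on the counts used edgeR 4.0.16 under R 4.3.3, with TMM scaling, filterByExpr (minimum count 10, minimum total 15), robust quasi-likelihood F tests, and adjustment by Benjamini-Hochberg at 0.05 over all genes tested. The 6 groups of a study shared 1 fit, with 15668 genes at 10 mg/m3 and 15551 at 30 mg/m3; doses were compared in a fit of 64 libraries and 16190 genes. The biological coefficient of variation was 16.11% and 16.74% in the fits of the 10 and 30 mg/m3 studies. All 9 members passed the filter in each fit. The mean over days and a test on 2 degrees of freedom for a difference between days were also run. Levels are CPM scaled by TMM factors over all libraries; correlations used log2 CPM with a prior count of 2. No 2 libraries of a group held identical counts, and the lowest chi-square per degree of freedom between any such pair was 2.14. The procedure was checked on simulated counts, with changes placed only in genes of higher read number and 1 spread for all genes. The check required recovery only of changes larger than those called for Mmp12 and Arg1. It does not cover genes with as few reads as Mmp12.

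The members, the lists of genes and the rule for named genes (the 9 members in every comparison, the 3 genes most like each by Pearson r, and called or most abundant list genes) were chosen with earlier results of these data known. DESeq2 1.42.0, limma 3.58.1 voom, DESeq2 size factors, no filter (minimum count 1), only the compared groups in a fit, leaving out each rat, and leaving out air rats 51 and 53 of day 1 at 30 mg/m3 were tried as alternatives. A mean over days 7 and 27 alone was added after seeing the data. Promoter sequences were copied from a RefSeq table of assembly GRCr8, in which 6 of the 9 members had an entry.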

Additional observations from a re-analysis of the deposited data

Results flagged for a closer look

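In the 12 groups of 4 to 6 rats, each of the 9 genes was looked at for a single rat far from the rest, and 7 of 108 sets had one. Chance alone gives about 1 in 20. Csf1 was 45.8 CPM in dust rat 16 at day 27 of 10 mg/m3, against 30.4 to 32.3 CPM in the other 3 dust rats. Csf1r was 297 CPM in air rat 69 at day 7 of 30 mg/m3, against 270 to 279 CPM in the others. Trem2 was 1.67 CPM in dust rat 73 at day 7 of 30 mg/m3, against 3.12 to 3.95 CPM in its group, and 5.88 CPM in air rat 84 at day 27, against 3.15 to 4.17 CPM. Gpnmb was 116 CPM in dust rat 27 at day 1 of 10 mg/m3, against 204 to 223 CPM, in the library with the lowest total. Spp1 was 34 CPM in dust rat 90 at day 27 of 30 mg/m3, against 1.53 to 7.03 CPM, and 20.1 CPM in air rat 36 at day 7 of 10 mg/m3, against 3.33 to 6.59 CPM.

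The dust effect was called different between the doses for 2 results. They were Csf1r at day 1, with a difference of -0.307 on the log2 scale (30 minus 10 mg/m3), and Mmp12 in the mean over days, with a difference of 0.94. Both calls were lost in some of the alternative fits, and a difference between doses cannot be told apart from one between the studies.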

How the results depend on the processing

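No paired analysis was possible because the rat numbers in the titles are all different and no number is shared between groups.

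Each rat was left out in turn. The mean effect at 30 mg/m3 then ran from 0.51 to 0.60 for Mmp12, with adjusted p of 0.0233 to 0.0657, and from 0.33 to 0.39 for Arg1, with adjusted p of 0.0136 to 0.0553. Arg1 lost its call without air rat 55 or 82 or dust rat 62, 79 or 96 (adjusted p of 0.0512 to 0.0553). Mmp12 lost it without air rat 54, 55, 65, 70, 71, 81, 82, 85 or 87 or dust rat 60, 62, 74, 76, 79, 90, 92 or 96 (adjusted p of 0.0513 to 0.0657), and with no filter on low counts (0.0506). Its dose difference in the mean ran from 0.73 (without air rat 36) to 1.00, with adjusted p of 0.0317 to 0.108; it lost its call without any 1 of 35 rats, and with no filter (0.071). DESeq2 gave it no adjusted p. Csf1r between doses at day 1 ran from -0.37 to -0.28, losing its call without air rat 17, 19, 20, 54 or 55 or dust rat 30, 61 or 62 (adjusted p of 0.0517 to 0.0688) and with no filter (0.0544). Between doses at day 1, Arg1 passed without air rat 20 or dust rat 32 or 58 (adjusted p of 0.0279 to 0.0484), and Gpnmb without air rat 21 (0.0225). No called value changed sign. Values that were not called changed sign in 22 of 696 cases over the other alternatives, all within 1 SE of 0, and in 211 of 5184 with a rat left out.

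Members called moved to 1 with DESeq2 at day 1 of 10 mg/m3 and in air over time of that study; to 0 over days 7 and 27 and 1 with no filter for the mean at 30 mg/m3; to 0 with no filter or only the compared groups between doses at day 1; and to 0 with voom, no filter or days 7 and 27 between doses in the mean. With a rat left out they ran from 0 to 1 at day 1 of 10 mg/m3 (1 without air rat 21), 0 to 2 in the mean at 30 mg/m3, 0 to 2 and 0 to 1 between doses at day 1 and in the mean, and stayed at 0 elsewhere.

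Counts over all genes moved far more. At day 1 of 10 mg/m3, 20 genes became 473 with DESeq2, 11 with its size factors, 8 with voom, 5 with no filter and 3 with only the compared groups, and 1 (without air rat 17) to 1147 (without air rat 21) with a rat left out. At day 27 of 10 mg/m3, 0 became 1 with only the compared groups. At day 1 of 30 mg/m3, 0 became 37 with DESeq2 and 877 without air rats 51 and 53, and 0 to 220 (without air rat 53) with a rat left out. At day 7 of 30 mg/m3, 10 became 55 with DESeq2, 6 with voom or no filter, 36 with only the compared groups and 19 without rats 51 and 53, and 0 (without air rat 70) to 21 (without air rat 66). The mean at 10 mg/m3 moved from 5 genes to 21 with DESeq2 and 8 with voom, and 2 to 20 (without air rat 21). The mean at 30 mg/m3 moved from 187 to 417 with DESeq2, 0 over days 7 and 27, 107 with no filter and 1014 without rats 51 and 53, and 22 (without dust rat 79) to 610 (without air rat 53). The test between days at 30 mg/m3 gave 46 with DESeq2 and 3 without rats 51 and 53, and at 10 mg/m3 0 to 57 (without air rat 6). Between doses at day 1, 1678 became 978 with no filter, 6 with only the compared groups and 3115 without rats 51 and 53, and 452 (without air rat 17) to 2825 (without air rat 53). At day 7 0 became 14 with DESeq2, 2 with only the compared groups, and 0 to 67 (without air rat 37); at day 27 it was 0 to 1. The mean between doses moved from 338 to 809 with DESeq2, 175 with voom, 59 with no filter, 0 over days 7 and 27 and 1421 without rats 51 and 53, and 4 (without air rat 6) to 1046 (without air rat 21). Air over time moved from 466 to 945 with DESeq2, 268 with no filter and 0 with only the compared groups, and 2 (without air rat 18) to 1467 (without air rat 21) in the 10 mg/m3 study, and from 2007 to 1052 without rats 51 and 53 and 1068 to 2778 in the 30 mg/m3 study. The causes were not tested. Mmp12, Trem2, Arg1 and Fabp4 had at most 115 reads in any library, which limits their precision.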
